A study of Mus musculus with 7899 samples.

Results

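Regulators of G-protein signalling (RGS proteins) shut off heterotrimeric G proteins. A receptor that binds its ligand loads the Gα subunit with GTP, and an RGS protein speeds the hydrolysis of that GTP, which ends the signal sooner. In the insulin-producing β cell, Gq-coupled receptors raise calcium, Gs-coupled receptors such as the incretin receptors raise cAMP, and Gi-coupled receptors such as the α2A-adrenergic receptor restrain insulin release. The 6 genes described here were Rgs2, Rgs3, Rgs4 and Rgs16 of the R4 family, Rgs9 of the R7 family, which works in a complex with Gβ5, and Rgs17 of the RZ family, which acts on Gi-type subunits. Rgs2 is known for its action on Gq and as a gene induced within hours of cAMP or calcium signals.

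The members were found by their symbols in the gene column of every count table, and were 6 of the 21 genes with a numbered Rgs symbol among 21767 genes in the table of the pregnancy time course. They were chosen by values measured in these data, of which the difference of Rgs2 between G3.5 and G0 is the 1 on record, so every value of that contrast is given below as a description without a test. The other contrasts against G0 of the time course share its G0 libraries with that value.

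All libraries came from sorted pancreatic β cells of female C57BL/6J mice, sequenced cell by cell in plates with Smart-seq3xpress, a full-length protocol. The 7897 cells formed 100 libraries of 48 groups in 7 tables, where a library is the sum of the reads of all cells of one replicate. The time course (35 libraries, standard diet, no knockout named) had a G0 group and 9 further stages, the earliest G3.5 and the latest G18.5, which are read here as days of gestation with G0 as the reference, followed by days 2, 7 and 14 after delivery in L and NL mice, read here as lactating and not lactating. The labels spell out neither abbreviation. Knockout tables held wild type (WT) and knockout (KO) mice on standard diet: Acss2, which makes acetyl-CoA from acetate, and Stat3, a cytokine-responsive transcription factor, at G0, G14.5 and G18.5, and p300, the histone acetyltransferase encoded by Ep300, at G0 and G14.5. A high-fat diet (HFD) table held HFD mice without a named knockout at G0, G14.5 and P7NL, HFD Acss2 WT and KO mice at G0 and G14.5, and Acss2 WT mice on standard diet (SD) at G14.5. In 2 culture tables, islets of mice on standard diet were kept for 4 days in medium with 20% human serum, either maternal (MS) or normal (NS), with 5 µM A485 (an inhibitor of the acetyltransferase site of p300 and its relative CBP), 20 µM nifuroxazide (an antibiotic that is also used to inhibit STAT3 signalling) or DMSO vehicle. Groups had 2 libraries, except G14.5, G18.5, P14L and HFD_G14.5, which had 3. The labels call most replicates biological without saying whether animals were pooled, and give no ages, no promoter or cell type in which a knockout was made, and no deleted exon. Where replicates are technical, p-values measure technical spread only.

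Libraries held 13273435 to 181405413 reads from 21 to 160 cells. Insulin reads (Ins1 and Ins2) made up 33.0% to 69.8% of each library, as the β-cell label has it. Levels are given in CPM, reads scaled to a common library total. Summed marker levels reached 8001 for 9 α-cell genes, 4200 for 6 δ-cell genes and 2522 for the PP-cell hormones, 1019 for ductal, 452 for acinar and 170 for immune genes, 20.6 for endothelial genes and 2.13 for stromal genes. Cd3e, Ptprc and Col1a1 reached at most 0.0415, 0.522 and 0.583 CPM, while Krt19 of ductal cells reached 2.08, Pecam1 of endothelial cells 7.98 and Cpa1 of acinar cells 30.7 CPM, the last in HFD_G14.5_Acss2KO. Some other genes of the immune and ductal lists were higher. C1qa of the immune list averaged 127 CPM in G14.5_Stat3WT, and Krt7 of the ductal list 388 CPM in NS_A485Ctrl. The targeted transcripts remained detectable in knockouts. Acss2 was at 18.0 to 38.5 CPM in WT and 9.76 to 21.7 CPM in KO libraries on standard diet, and at 21.2 to 48.1 and 11.5 to 18.8 CPM in the HFD table. Ep300 was at 24.2 to 37.2 CPM in WT and 11.9 to 20.4 CPM in KO libraries. Stat3 was at 65.9 to 90.2 CPM in WT and 49.4 to 73.7 CPM in KO libraries, and the ranges overlapped already at G0, so the label is checked only weakly by its own transcript. In libraries of summed cells, fewer cells with a transcript and less of it per cell cannot be told apart from the level alone.

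Of the 6 members, 3 lie on chromosome 1, which carries 11 of the 21 numbered Rgs genes (GRCm38 positions of the annotation). Rgs2 spans chr1:143999338-144004161 on the minus strand, Rgs16 chr1:153740349-153745468 on the plus strand, 40.0 kb from Rgs8, and Rgs4 chr1:169741477-169747642 on the minus strand, 45.7 kb from Rgs5. Rgs3 lies at chr4:62559847-62704001 on the plus strand, Rgs9 at chr11:109225355-109298129 and Rgs17 at chr10:5825663-5922400, both on the minus strand. The 250 bases before the RefSeq start (GRCm38.p6, 5′ to 3′) are shown for the 3 members with a called change, that is an adjusted p under 0.05. Capitals mark matches, on either strand, to TGACG, the core of the cAMP response element, the TATA box TATAAA and the CCAAT box CCAAT.
Rgs2, chr1:144004150-144004399, minus strand: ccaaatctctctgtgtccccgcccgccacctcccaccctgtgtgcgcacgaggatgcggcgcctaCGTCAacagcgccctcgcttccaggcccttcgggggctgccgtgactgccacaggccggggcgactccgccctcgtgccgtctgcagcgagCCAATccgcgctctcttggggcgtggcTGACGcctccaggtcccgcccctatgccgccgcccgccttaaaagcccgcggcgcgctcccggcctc
Rgs4, chr1:169747643-169747892, minus strand: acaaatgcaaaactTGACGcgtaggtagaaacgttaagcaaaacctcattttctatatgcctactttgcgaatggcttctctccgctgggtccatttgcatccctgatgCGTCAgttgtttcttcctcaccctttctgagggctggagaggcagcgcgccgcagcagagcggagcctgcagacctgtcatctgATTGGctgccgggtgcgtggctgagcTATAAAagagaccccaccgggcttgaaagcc
Rgs16, chr1:153740103-153740352, plus strand: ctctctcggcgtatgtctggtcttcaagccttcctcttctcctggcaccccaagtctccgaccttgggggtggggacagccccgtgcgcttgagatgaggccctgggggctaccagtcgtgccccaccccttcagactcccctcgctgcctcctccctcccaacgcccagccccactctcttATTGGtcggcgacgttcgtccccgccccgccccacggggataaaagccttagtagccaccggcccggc
TGACG occurred at 185 and 67 bases before the start of Rgs2 and at 236 and 141 bases before that of Rgs4, and in none of the windows of Rgs16, Rgs3, Rgs9 and Rgs17. It occurred in 17.8% of 32851 RefSeq promoter windows of the same length. The full element TGACGTCA, found in 1.55% of all windows, was in none of the members' windows. A CCAAT box (33.8% of windows) stood 94, 68 and 57 bases before the starts of Rgs2, Rgs16 and Rgs4, and Rgs4 also had a TATA box at 31 bases (12.4% of windows hold one). Such matches describe letters, not bound sites.

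Per kilobase of gene length, Rgs2 had the highest median level in the time course, at 12.8 CPM per kb over 35 libraries, before Rgs16 at 7.93, Rgs4 at 4.11, Rgs9 at 4.04, Rgs3 at 1.39 and Rgs17 at 1.31. Rgs4 and Rgs9 were next to each other in that order with library ranges that overlapped widely, as did Rgs3 and Rgs17. In CPM not divided by length, Rgs2 ranged from 13.8 to 224 in the time course, from 8.47 to 526 in the knockout and diet tables and from 38.4 to 671 in the cultures. Rgs4 ranged from 2.57 to 25.2 CPM in the time course and from 2.63 to 303 CPM in the cultures. Rgs9 ranged from 8.27 to 23.6 CPM in the time course and from 18.2 to 37.3 CPM in the cultures.

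Over 55 comparisons and differences of comparisons, 26 of 322 member tests were called by edgeR's quasi-likelihood test with Benjamini-Hochberg adjustment over all genes of a table, beside 0% to 10.9% of all genes called in a comparison. Rgs2 accounted for 21 of them (11 higher, 10 lower), Rgs4 for 3 (all lower) and Rgs16 for 2 (both lower). Rgs3, Rgs9 and Rgs17 were called in none by edgeR, with 2 of 47, 7 of 55 and 11 of 55 tests at an unadjusted p under 0.05. Such a p was also common among all genes, from 375 of 14057 to 3782 of 15373 in a comparison. DESeq2 called Rgs3 once and Rgs17 in 2 comparisons, and Rgs9 in none. Of the 26 calls, 12 were kept under every alternative setting run.

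**Figure D1:**
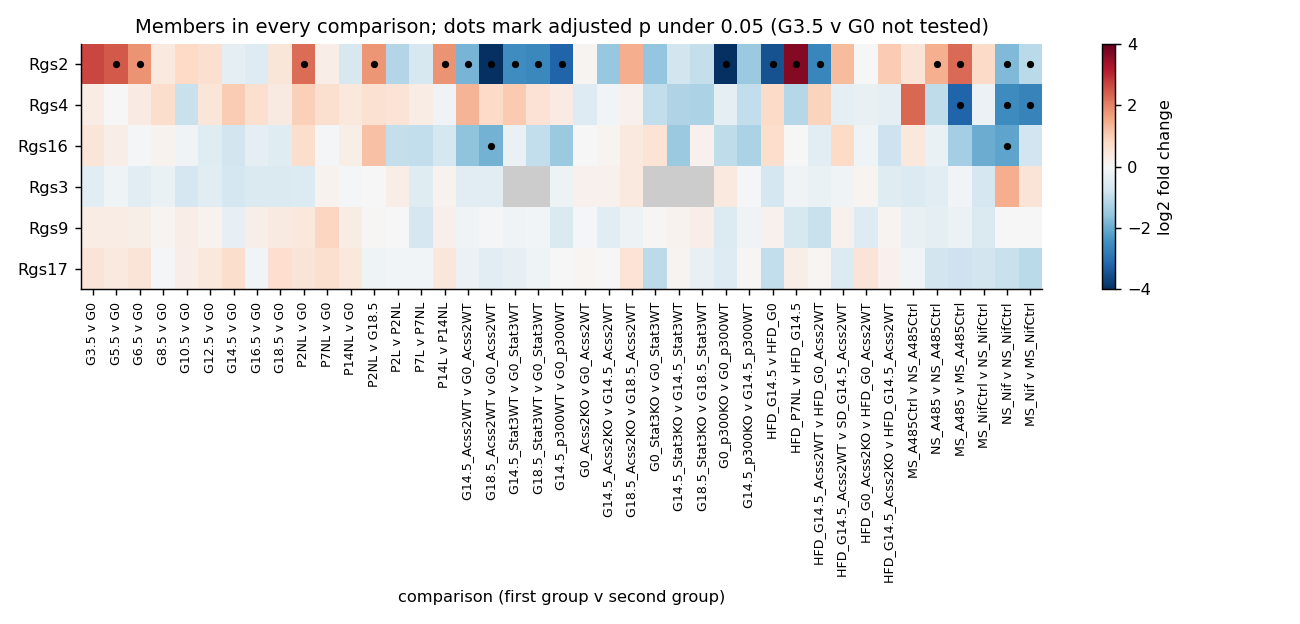
Log2 fold change of each member (rows) in each comparison of 2 groups (columns, first group against second); red is higher and blue lower in the first group, colours saturate at the ends of the scale, grey is not in the table, and dots mark adjusted p under 0.05 (edgeR). The dots lie almost wholly in the Rgs2 row, with 3 for Rgs4 and 2 for Rgs16, and G3.5 against G0 carries no test.

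In the time course Rgs2 was high in early gestation, low from mid-gestation, and high again 2 days after delivery in mice that did not lactate. Its level was 22.0 and 33.4 CPM in the G0 libraries and 125 and 224 CPM at G3.5. The difference at G3.5, 2.66 on the log2 scale, belongs to the contrast behind the choice of members and has no test, and 0.579% of 15373 tested genes were called there. At G5.5 Rgs2 was at 96.8 and 206 CPM and at G6.5 at 113 and 81.0 CPM, all above both G0 libraries. From G8.5 on, levels lay between 13.8 and 59.6 CPM, some above and some below the G0 pair. They were 45.7 and 26.1 CPM at G8.5, 41.9 and 54.1 at G10.5, 59.6 and 26.2 at G12.5, 24.9, 21.6 and 18.0 at G14.5, 13.8 and 24.7 at G16.5, and 29.0, 58.3 and 27.7 at G18.5.

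Against G0, Rgs2 was higher by 2.46 ± 0.43 (log2 fold change ± SE) at G5.5 (adjusted p = 0.00235) and by 1.81 ± 0.43 at G6.5 (adjusted p = 0.0219). These were the 2 calls among 48 member tests of the 8 stages tested, from G5.5 to G18.5. The share of all genes called was 1.57% at G5.5 and 1.65% at G6.5. It was 5.79% at G8.5, 2.76% at G10.5, 5.03% at G12.5, 10.1% at G14.5, 7.25% at G16.5 and 4.77% at G18.5, where no member was called by edgeR or DESeq2. The call at G5.5 was lost without G5.5 replicate 2 (adjusted p = 0.0859), and that at G6.5 without G0 replicate 1, G0 replicate 2 or G6.5 replicate 1 (up to 0.181). Against G14.5, which shares no library with the choice of members, Rgs2 was higher by 2.82 ± 0.38 at G5.5 (adjusted p = 8.71e-06, 10.9% of genes called) and by 2.17 ± 0.37 at G6.5 (adjusted p = 0.00157, 2.08% called). Both of those calls held in every setting run, but the reference was chosen after the levels had been seen. Among α-, δ- and PP-cell marker sums, G6.5 replicate 1 was the library with the highest δ-cell sum of all 100. Without cells in which other islet hormones exceeded 5% of reads, the G6.5 difference from G0 was 1.78.

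**Figure D2:**
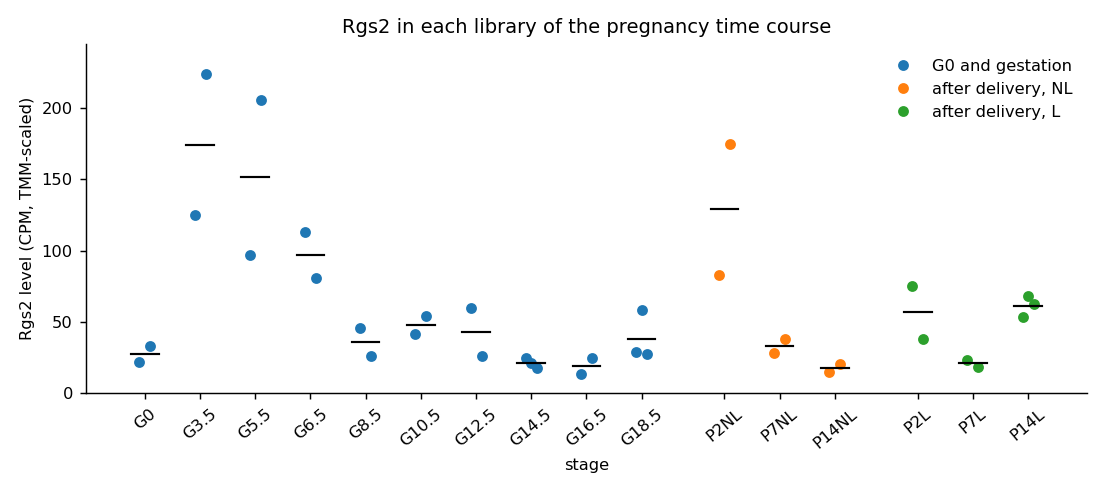
Rgs2 level (CPM with TMM library sizes) in each of the 35 libraries of the time course by stage; points are libraries and bars are group means. The G3.5, G5.5 and G6.5 libraries lie between 81.0 and 224 CPM, above all G8.5 to G18.5 libraries, and the P2NL pair reaches 83.1 and 175 CPM.

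At 2 days after delivery, NL mice had 83.1 and 175 CPM of Rgs2, against 28.5 and 38.0 CPM at P7NL and 14.7 and 20.4 CPM at P14NL. P2NL was higher than G0 by 2.23 ± 0.43 (adjusted p = 0.00971) and higher than G18.5 by 1.75 ± 0.37 (adjusted p = 0.00691), and no other member was called in these contrasts, where 0.572% and 1.3% of genes were. Without P2NL replicate 2, the higher of the pair, neither difference was called, nor was the first without either G0 replicate or the second without G18.5 replicate 1 or 3. No member was called at P7NL or P14NL against G0 by edgeR or DESeq2 (0.462% and 0.28% of genes called), where Rgs9 and Rgs17 at P7NL had unadjusted p-values of 0.00449 and 0.0266. The 15 early-response genes on the pathway list, transcripts that cAMP or calcium induce, summed to 1905 and 1653 CPM at P2NL, to 911 and 991 CPM at G0 and to 875 and 1165 CPM at G3.5. Of the 15, Fosb, a subunit of the AP-1 factor, rose from 26.6 to 132 CPM against G0 (2.31, adjusted p = 0.0386), and Dusp1, a MAP kinase phosphatase, rose by 1.07 against G18.5 (adjusted p = 0.0419).

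Lactating mice had 75.4 and 38.5 CPM of Rgs2 at P2L, 23.4 and 18.8 at P7L, and 53.7, 68.3 and 62.8 at P14L. The P14L libraries lay above both P14NL libraries, with a difference of 1.81 ± 0.40 (adjusted p = 0.0166, 0.722% of genes called), the 1 call among 18 member tests of lactation. It was lost when each cell was weighted equally and without P14NL replicate 1 or 2. At P2 and P7 the difference pointed the other way, -1.18 ± 0.41 and -0.65 ± 0.41 (adjusted p = 0.698 and 0.78), with 0.124% and 0.839% of genes called. No gene was called by edgeR for a change of the lactation difference between days (0% in each of the 3 pairs of days). In the 8 contrasts with 0% called by edgeR, these and those in the other tables, 4.07% to 9.89% of genes had an unadjusted p under 0.05 and DESeq2 called 9 to 286 genes. For Rgs2 the change from P2 to P14 was 2.99 ± 0.57, with an unadjusted p of 1.13e-05, an adjusted p of 0.174 by edgeR and of 0.012 by DESeq2.

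Outside the time course, Rgs2 was high at G0 and low in gestation. In the Acss2 table it was at 348 and 282 CPM in G0_Acss2WT, 62.3 and 110 at G14.5 and 22.0 and 15.4 at G18.5. The difference from G0 was -1.87 ± 0.28 at G14.5 (adjusted p = 0.000752) and -4.07 ± 0.30 at G18.5 (adjusted p = 8.36e-07), a 16.8-fold lower level. Markers of other cells changed in the latter contrast too: the PP-cell hormones Ppy (-3.93) and Pyy (-3.45), the δ-cell gene Rbp4 (-3.89) and the α-cell gene Ttr (-1.72) were lower, and the acinar genes Prss2 and Ctrb1 were higher, at 1.97 and 4.36 CPM in the mean at G18.5. Summed PP-cell markers were 517 and 1190 CPM at G0 and 29.4 and 93.7 CPM at G18.5, and their part in the result was not tested. G18.5_Acss2WT replicate 2 had the highest share of insulin reads of all libraries, 69.8%, and without it the Rgs2 difference was -3.85. In the Stat3 table the WT levels were 211 and 430 CPM at G0, 64.7 and 51.1 at G14.5 and 58.9 and 48.8 at G18.5, and the differences were -2.47 ± 0.34 (adjusted p = 0.000882) and -2.57 ± 0.35 (adjusted p = 0.00041). In the p300 table the WT level fell from 445 and 453 CPM at G0 to 60.3 and 36.5 CPM at G14.5 (-3.21 ± 0.42, adjusted p = 0.00228). All 5 of these Rgs2 calls held in every setting run. They were made in tables where 2.92% and 6.89% (Acss2), 1.74% and 2.06% (Stat3) and 2.15% (p300) of genes were called.

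At G14.5 and G18.5, the stages that the time course shares with these tables, no time-course difference of Rgs2 from G0 was called, and the G0 libraries stood far apart between the sets. The 10 G0 libraries of WT mice or mice without a named knockout in the other tables, 4 of them on high-fat diet, held 181 to 526 CPM of Rgs2, and the G0 pair of the time course 22.0 and 33.4 CPM. G14.5 and G18.5 libraries held 18.0 to 58.3 CPM in the time course and 8.47 to 146 CPM elsewhere, knockouts included. The tables were normalized separately, so these levels are set side by side without a test, and what separates the G0 groups was not tested. Groups with one label could differ too: Acss2 WT mice on standard diet at G14.5 held 62.3 and 110 CPM in the Acss2 table and 20.9 and 31.4 CPM in the HFD table.

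**Figure D3:**
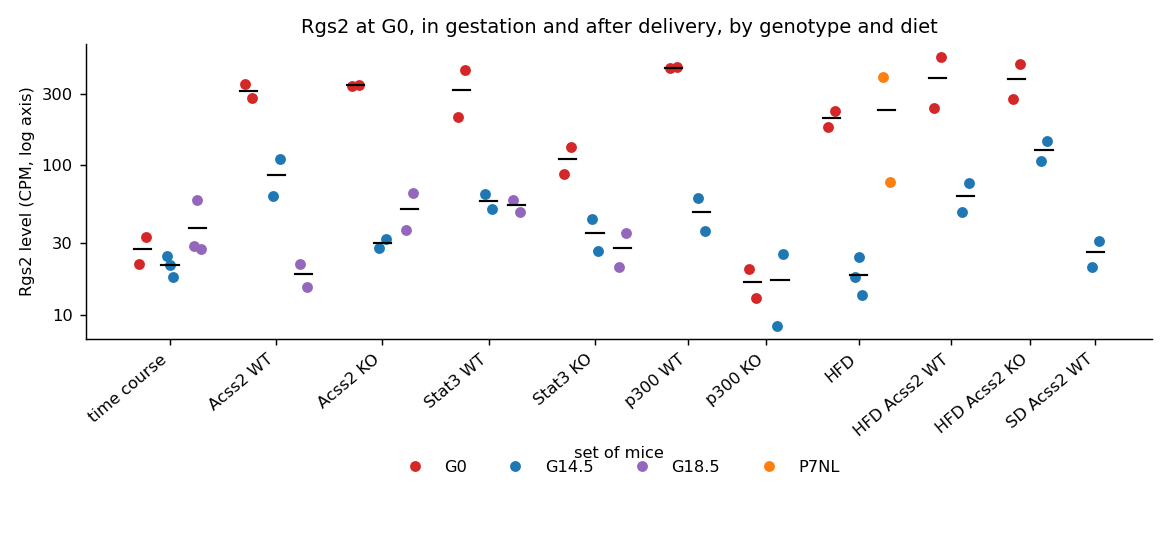
Rgs2 level (CPM, log axis) in each library at G0 (red), G14.5 (blue), G18.5 (purple) and P7NL (orange) for each set of mice; points are libraries and bars are group means, and tables were normalized separately. G0 libraries outside the time course lie at 181 CPM or above, except those of Stat3 KO (87.5 and 132 CPM) and p300 KO (20.2 and 13.0 CPM) mice.

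The p300 knockout gave the 1 call among 45 member tests of knockout against WT. Rgs2 was at 20.2 and 13.0 CPM in G0_p300KO and at 445 and 453 CPM in G0_p300WT, a 27.0-fold lower level (-4.76 ± 0.46, adjusted p = 0.000362) that was called in every setting run. In this contrast 1.54% of genes were called. At G14.5 the KO libraries held 8.47 and 25.7 CPM and the WT libraries 60.3 and 36.5 CPM, a difference of -1.50 ± 0.40 that was not called (adjusted p = 0.178, 0% of genes called). The response to gestation was 3.25 ± 0.57 higher in KO than in WT mice, with the KO level low at both stages. Its adjusted p was 0.0645 by edgeR and 0.0224 by DESeq2, and 0.0668% of genes were called by edgeR. Summed PP-cell markers were 380 and 296 CPM in G0_p300KO and 432 and 244 CPM in G0_p300WT, while δ-cell sums were 703 and 178 CPM against 234 and 295 CPM. Both G14.5 genotypes were low in these cells, with δ-cell sums of 11.8 to 26.3 CPM. The immune-cell gene C1qa was lower in G0_p300KO than in G0_p300WT, as Rgs2 was, at 14.1 against 52.0 CPM in the mean (-1.88, adjusted p = 0.00271 by edgeR). No cell of the p300 table exceeded 5% of reads in other islet hormones, so leaving out such cells is no check here, and the part of other islet cells or immune cells in these Rgs2 differences was not tested.

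In cells thinned to 100000 reads each, all cells of both G0_p300WT libraries (30 and 85) had an Rgs2 read, against 34.9% and 45.0% in G0_p300KO and 61.5% and 66.1% in G14.5_p300WT. Unthinned shares in G0_p300KO were 83.7% and 90.0%. The 10% of cells with the highest level carried 23.2% and 23.7% of the Rgs2 signal in G0_p300WT and 64.1% and 54.8% in G0_p300KO. In the time course 54.2% and 74.3% of thinned cells had a read at G0, 90.6% and 92.9% at G3.5 and 33.7% and 45.9% at P14NL. In G0_p300WT and at G3.5, where Rgs2 was high, most thinned cells thus had a read. Such a share rises with the level and does not show how evenly the reads were spread. In the culture libraries the 10% of cells with the highest level carried 27.6% to 78.8% of the Rgs2 signal.

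At G0 the Acss2 KO and WT libraries overlapped in Rgs2, 341 and 343 CPM in KO and 348 and 282 CPM in WT (0.12 ± 0.27, adjusted p = 1.0 with 0.00711% of genes called). At G14.5 the KO libraries were lower, 28.1 and 32.0 CPM against 62.3 and 110 (-1.52 ± 0.27), and at G18.5 higher, 37.1 and 65.0 CPM against 22.0 and 15.4 (1.45 ± 0.27). Neither passed edgeR's test (adjusted p = 0.0717 and 0.051, with 0.0213% and 0.149% of genes called), and DESeq2 called both (adjusted p = 0.01 and 0.00979). The gestation responses in KO minus WT were -1.64 ± 0.38 at G14.5 and 1.33 ± 0.38 at G18.5, not called among 0.0213% and 0.0142% of genes. The change of the KO difference from G14.5 to G18.5, a contrast added after the levels had been seen, was called (2.97 ± 0.39, adjusted p = 0.00777, 0.697% of genes), but not without G14.5_Acss2KO replicate 1 or 2. At G18.5 the early-response genes Fos and Fosb were higher in KO mice, by 1.42 and 2.56 (adjusted p = 0.0228 and 0.0251), and the list of 15 summed to 1243 and 1172 CPM in KO and 735 and 531 CPM in WT libraries.

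Stat3 KO libraries had less Rgs2 than WT at each stage, 87.5 and 132 CPM at G0, 43.7 and 26.6 at G14.5 and 20.9 and 35.3 at G18.5. None of these was called: -1.55 ± 0.33 at G0 (adjusted p = 0.155), -0.72 ± 0.33 at G14.5 (0.572) and -0.94 ± 0.33 at G18.5 (0.85). Few genes were called in these knockout contrasts, 0%, 0.0098% and 0.0196%, and 0% and 0.0392% for the gestation responses in KO minus WT at G14.5 and G18.5. For the change of the Stat3 difference between the stages, 0.0098% of genes were called, and Rgs2 showed -0.22 ± 0.46. Rgs16 in the same table was at 8.39 and 8.15 CPM in G14.5_Stat3KO and 27.6 and 18.1 CPM in G14.5_Stat3WT, a difference of -1.47 ± 0.32 with an adjusted p of 0.252 by edgeR and 0.00814 by DESeq2, which also called its lower level in G14.5_p300KO (-1.29, adjusted p = 0.0436). Rgs3 is not in the Stat3 table and was not analysed there.

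On high-fat diet, Rgs2 fell in gestation and rose after it. HFD_G0 libraries held 181 and 231 CPM, HFD_G14.5 libraries 17.9, 24.4 and 13.5 CPM, and HFD_P7NL libraries 391 and 77.2 CPM. The differences were -3.47 ± 0.47 for G14.5 against G0 (adjusted p = 0.000964, 1.95% of genes called) and 3.66 ± 0.47 for P7NL against G14.5 (adjusted p = 0.000427, 1.32% called), and both held in every setting run. HFD_P7NL replicates lay far apart, and leaving one out moved the second difference between 2.06 and 4.40. HFD_G14.5 replicate 3 had the highest α-cell sum of all libraries, 8001 CPM, beside 2412 and 2826 CPM at HFD_G0. Without cells rich in other hormones the fall was -3.49.

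HFD Acss2 WT mice went from 242 and 526 CPM of Rgs2 at G0 to 48.7 and 76.0 CPM at G14.5 (-2.62 ± 0.52, adjusted p = 0.0106, 1.93% of genes called). This call was lost without HFD_G0_Acss2WT replicate 2 or either HFD_G14.5_Acss2WT replicate. HFD Acss2 KO mice held 277 and 476 CPM at G0 and 106 and 146 CPM at G14.5. The KO differences, -0.03 ± 0.49 at G0 and 1.01 ± 0.50 at G14.5, were not called (0% and 0.0638% of genes were), nor was the KO minus WT response (1.04 ± 0.70, 0.0142% of genes). At G14.5, HFD was higher than SD in Acss2 WT mice by 1.25 ± 0.50, which was not called either (adjusted p = 0.305, 0.213% of genes). On standard diet the same genotype contrast at G14.5 had the opposite sign, but the difference between diets was not tested, as the tables were fitted separately.

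In cultured islets Rgs2 was higher with A485 and lower with nifuroxazide, in both sera. With A485, Rgs2 was at 294 and 214 CPM in NS and 656 and 671 CPM in MS, with vehicle at 109 and 80.7 CPM in NS and 81.4 and 194 CPM in MS. The difference was 1.42 ± 0.32 in NS (adjusted p = 0.0416, 2.57% of genes called) and 2.27 ± 0.32 in MS (adjusted p = 0.0041, 3.3% called). The first was lost whenever any one of its 4 libraries was left out, and the second held in every setting run. With nifuroxazide, Rgs2 was at 44.8 and 38.4 CPM in NS and 96.5 and 136 CPM in MS, with vehicle at 128 and 155 CPM in NS and 248 and 240 CPM in MS. The difference was -1.77 ± 0.20 in NS (adjusted p = 0.000427, 1.99% of genes called), which held in every setting, and -1.07 ± 0.19 in MS (adjusted p = 0.0188, 0.697% called). The latter was lost when each cell was weighted equally and without MS_NifCtrl replicate 1 or 2 or MS_Nif replicate 1. The 2 drugs were given at different doses and in separate tables, and are not compared with each other.

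No member was called for maternal against normal serum with vehicle by edgeR, with 5 of 12 tests at an unadjusted p under 0.05. Of all genes, 1632 of 13554 in the A485 set and 1303 of 13481 in the nifuroxazide set had such a p. Rgs2 in MS against NS vehicle was 0.54 ± 0.31 in the A485 set (adjusted p = 0.549, 0.657% of genes called) and 0.78 ± 0.19 in the nifuroxazide set (adjusted p = 0.0818 by edgeR and 0.00284 by DESeq2, 1.02% called by edgeR). The serum response under drug minus vehicle was 0.85 ± 0.44 for A485 and 0.70 ± 0.27 for nifuroxazide, neither called, with 0.00738% and 0% of genes called.

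Rgs4, which limits Gq and Gi signals and is abundant in neurons, was lower in 3 of the 4 drug contrasts of the cultures. It was at 34.7 and 61.1 CPM with NS vehicle and 2.63 and 13.9 CPM with nifuroxazide (-2.53 ± 0.54, adjusted p = 0.0296), and at 35.5 and 46.0 CPM with MS vehicle and 6.24 and 6.59 CPM with nifuroxazide (-2.66 ± 0.54, adjusted p = 0.0402). With A485 in MS it was at 28.6 and 11.1 CPM, against 61.2 and 303 CPM with vehicle (-3.20 ± 0.79, adjusted p = 0.0496). In NS the A485 libraries held 30.9 and 5.47 CPM and the vehicle libraries 31.3 and 43.1 CPM, which was not called. Each of the 3 calls was lost in 3 or 5 of 10 settings, and the A485 call without MS_A485Ctrl replicate 2 (-1.61), MS_A485 replicate 1 (-4.04) or MS_A485 replicate 2 (-2.67), and without Ins1 and Ins2 reads (-3.19, adjusted p = 0.0504). The A485 call was also lost without cells over 5% in other islet hormones, which left out 1 cell, in NS_A485Ctrl replicate 1. The nifuroxazide calls were lost without any of NS_NifCtrl replicates 1 and 2, NS_Nif replicate 1, and any library of the MS pair of groups. Rgs4 reads were concentrated in few cells: in the cultures the 10% of cells with the highest level carried 50.1% to 94.0% of them, and a read was found in a median of 37.0% of thinned cells.

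Rgs16, an RGS protein for Gi and Gq, was at 96.5 and 148 CPM with NS vehicle in the nifuroxazide set and 26.1 and 30.9 CPM with the drug (-2.10 ± 0.48, adjusted p = 0.0428). The call was lost by DESeq2 and whenever any of the 4 libraries was left out. Those NS vehicle libraries stood above the other vehicle libraries of the cultures, which held 9.68 to 34.9 CPM. In pregnancy Rgs16 fell in Acss2 WT mice from 23.5 and 46.0 CPM at G0 to 14.4 and 4.16 CPM at G18.5 (-1.90 ± 0.49, adjusted p = 0.0286), a call lost without G0_Acss2WT replicate 2 or G18.5_Acss2WT replicate 2. In p300 WT mice it was at 25.6 and 21.1 CPM at G0 and 5.82 and 11.0 CPM at G14.5 (-1.47 ± 0.36, adjusted p = 0.0523). In the time course the G0 pair was at 19.4 and 20.9 CPM, the G14.5 libraries at 11.5, 18.6 and 5.93 CPM and the P2NL pair at 29.4 and 35.5 CPM, with no call.

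**Figure D4:**
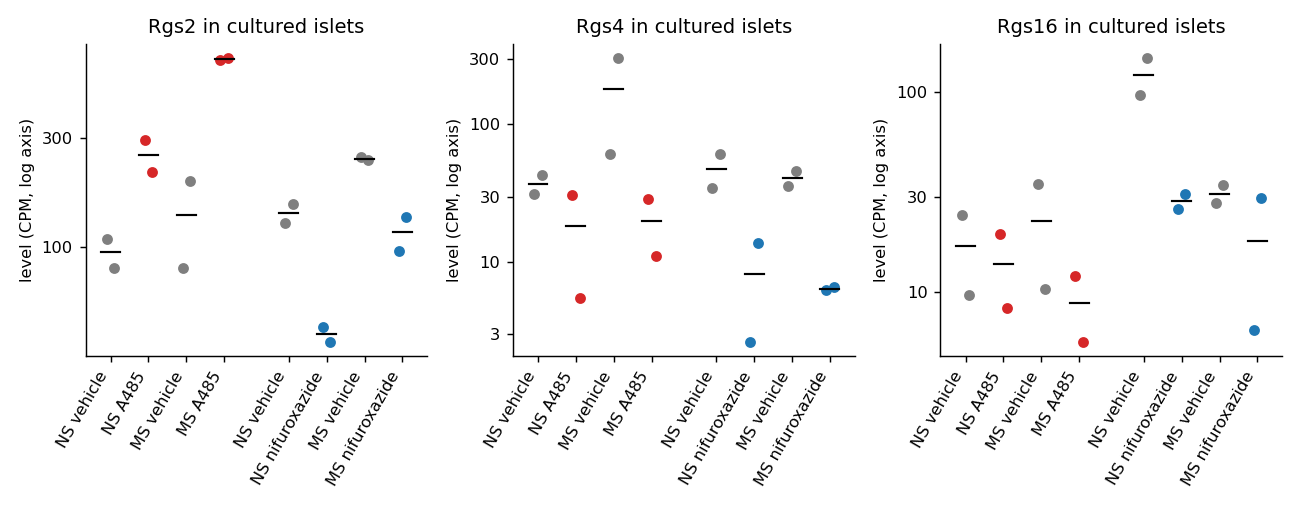
Rgs2, Rgs4 and Rgs16 levels (CPM, log axes) in each culture library, with vehicle in grey, A485 in red and nifuroxazide in blue; points are libraries, bars are group means, and the 2 drug sets come from separate tables. Rgs2 lies above its vehicle with A485 and below it with nifuroxazide, and the Rgs4 points with nifuroxazide stay under 14 CPM in both sera.

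Other marker sums moved with some culture groups. The δ-cell sum was 3270 and 646 CPM with NS vehicle and 112 and 105 CPM with A485, and the α-cell sum 5441 and 2814 CPM with NS vehicle and 900 and 1169 CPM with nifuroxazide. In MS, A485 lowered Gc of the α-cell list from 174 to 7.54 CPM (-4.53, adjusted p = 0.000171 by edgeR). The immune gene C1qa went from 31.2 to 4.44 CPM there (-2.81, adjusted p = 0.00726). Ins1 and Ins2 were called lower in the same contrast, by 1.11 and 0.71. Of the culture cells only 1, in NS_A485Ctrl replicate 1, exceeded 5% of reads in other islet hormones. Without it the Rgs2 difference with A485 in NS was 1.77 (adjusted p = 0.0152). No cell was left out of the MS groups or of the nifuroxazide table, so the part of other cells in those values was not tested.

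Several early-response genes changed beside Rgs2 under A485. The 15 genes summed to 2187 to 2410 CPM in the 4 A485 libraries and 1453 to 1949 CPM in their vehicles. In NS, 5 of 15 rose (Fos by 1.08, Fosb by 1.80, Junb by 1.08, Egr1 by 0.54, Btg2 by 0.78) and Crem, a repressor of cAMP-driven genes, fell by 0.91. In MS, 3 of 15 rose, the AP-1 genes Fos (0.84) and Junb (0.94) and Ier2 (1.01), while Jun fell by 2.47 and Atf3 by 5.14. The median log2 fold change of the 15 was 0.51 in NS and 0.48 in MS, beside -0.02 and -0.01 over all genes. With nifuroxazide the median of 14 tested genes was -0.69 in NS and -0.46 in MS, 0 of 14 were called by edgeR in each serum (6 and 3 at an unadjusted p under 0.05), and the sums were 1199 and 1195 CPM against 2361 and 1802 CPM in NS, and 2136 and 1120 CPM against 3457 and 1046 CPM in MS. Of all 13481 genes tested there, 2064 in NS and 1336 in MS had an unadjusted p under 0.05.

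Rgs3, an R4 member with long and short forms, was the member with the lowest median CPM in each set of tables, with 1.94 to 20.5 CPM over all. Its highest values were with nifuroxazide in NS, 19.9 and 20.5 CPM against 7.16 and 7.48 CPM with vehicle (1.46 ± 0.38), with an adjusted p of 0.073 by edgeR and 0.00743 by DESeq2. In MS the drug libraries held 5.74 and 7.45 CPM and the vehicle libraries 4.88 and 4.27 CPM. Rgs17 was lower with nifuroxazide in both sera, at 16.0 and 15.2 CPM against 33.2 and 24.9 CPM in NS (-0.90 ± 0.30, adjusted p = 0.164) and 9.19 and 7.33 CPM against 19.3 and 15.8 CPM in MS (-1.09 ± 0.30, adjusted p = 0.165 by edgeR and 0.0316 by DESeq2). On high-fat diet Rgs17 was at 15.6 and 21.6 CPM at G0 and 12.0, 7.13 and 8.79 CPM at G14.5 (-1.0 ± 0.27, adjusted p = 0.0614 by edgeR and 0.0219 by DESeq2). In the time course it pointed the other way, from 7.63 and 8.21 CPM at G0 to 10.4 to 15.3 CPM at G14.5 (0.70 ± 0.25, adjusted p = 0.072).

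Rgs9, known from the recovery of photoreceptors after light and from dopamine signalling in the striatum, was called in no comparison by edgeR with the filter on low counts or by DESeq2. Without the filter it was called at P7NL against G0 (adjusted p = 0.0414) and at G5.5 against G14.5 (adjusted p = 0.0482). With it, the lowest adjusted p in the 55 tests was 0.105, at G5.5 against G14.5 (14.2 against 9.12 CPM in the mean, 0.64 ± 0.25). At P7NL it averaged 21.0 CPM and at G0 11.6 CPM (0.87 ± 0.28, adjusted p = 0.184). Its single highest knockout-table library, 32.5 CPM in HFD_G0_Acss2WT replicate 1, stood beside 12.4 CPM in the other replicate. Rgs9 and Rgs4 had like median levels per kilobase in the time course, and a median of 47.5% of thinned cells had a read of Rgs9 and 27.5% one of Rgs4.

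**Figure D5:**
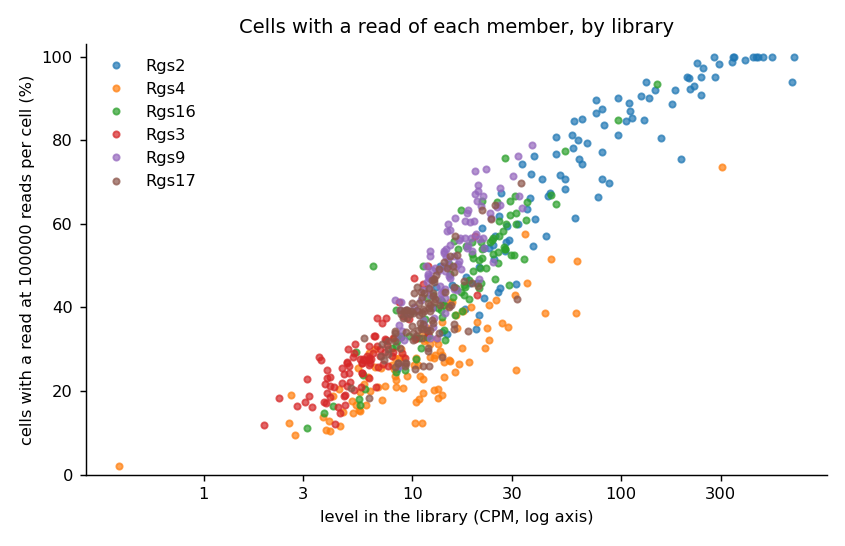
Share of cells with at least 1 read of each member after thinning to 100000 reads per cell (y, %) against the member's level in the library (x, CPM, log axis); each point is 1 member in 1 of the 100 libraries. The share rises with the level, and Rgs4 points lie below those of Rgs9 at like levels.

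Among the other genes of the pathway, lists drawn up with earlier results of these data known held 110 tested genes in the time course: the other Rgs genes and their partners, G-protein subunits, receptors, adenylyl cyclases, phosphodiesterases and early-response genes. At G5.5 the count was 2 higher and 1 lower, at G6.5 3 higher, and at G14.5 8 higher and 6 lower (12.7%, beside 10.1% of all genes). Among G-protein subunits, Gnai1 of the Gi family rose from 6.55 CPM at G0 to 20.9 CPM at G14.5 (1.64, adjusted p = 0.000175) and Gnai2 of the same family from 151 to 284 CPM (0.91, adjusted p = 4.98e-06). Gnas, the Gs subunit, had a low counted level at both stages and fell from 16.6 to 7.15 CPM (-1.21, adjusted p = 0.0083). Among Gs-coupled receptors, the incretin receptor Gipr fell by 1.45 and the glucagon receptor Gcgr by 1.09, and Gpr119, a receptor for fatty acid amides, rose by 1.59. The muscarinic receptor Chrm3, coupled to Gq, rose by 0.53 (adjusted p = 0.0373). Of 13 other Rgs genes tested, Rgs11, an R7 relative of Rgs9, was the 1 called at G14.5 (130 to 49.5 CPM, -1.40, adjusted p = 0.000226).

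In the wild types of the other tables, G18.5_Acss2WT showed 2 higher and 15 lower of 100 pathway genes against G0 (17.0%, beside 6.89% of all genes). The markers of PP, δ, α and acinar cells named above changed in the same contrast. Those lower included Rgs11 (-1.24), the Gq-coupled purinergic receptor P2ry1 (-0.81), Gipr (-0.84), Gcgr (-0.99) and the cyclase Adcy6 (-0.86). Of 14 early-response genes 7 were lower there, among them Nr4a1 (-1.94), Fosb (-1.44), Per1 (-1.25) and Egr1 (-1.24), and Crem was higher by 0.98. Per1, a clock gene that cAMP induces, fell beside Rgs2 in Stat3 WT mice at G14.5 (-1.25, adjusted p = 0.0173) and at G18.5 (-1.02, adjusted p = 0.0489) and in p300 WT mice at G14.5 (-1.83, adjusted p = 0.0105). Jun of the same list rose where Rgs2 fell, by 1.0 in G14.5_Acss2WT (adjusted p = 0.0197) and by 1.88 in HFD_G14.5_Acss2WT (adjusted p = 0.00658). The list summed to 1023 and 1064 CPM in G0_Acss2WT and 1355 and 1215 CPM in G14.5_Acss2WT. In Stat3 WT mice, with only 11 of the 15 genes present, the sums were 1226 and 1181 CPM at G0 and 1481 and 1441 CPM at G14.5. In p300 WT mice they were 1405 and 1006 CPM at G0 and 858 and 769 CPM at G14.5. In G0_p300KO, 5 of 98 pathway genes were lower and none higher (5.1%, beside 1.54% of all genes): Gpr119 (-3.39), Gnai1 (-2.03), P2ry1 (-1.92), Per1 (-1.52) and Egr1 (-0.87). Under A485 P2ry1 fell in both sera (-1.10 in NS, -0.80 in MS), as did the α2A-adrenergic receptor Adra2a (-1.16 and -1.92) and Gng12 (-1.57 and -1.61). Under nifuroxazide Gnai2 rose in both sera (0.93 and 1.10).

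Over the 35 libraries of the time course, the genes whose log2(CPM + 1) followed Rgs2 most closely among 7197 with a mean of at least 10 CPM were Ip6k2 (r = 0.76), Tmtc3 (0.75) and Per1 (0.71). For Rgs16 they were Six4 (0.75), Fam46c (0.74) and Lbh (0.73), for Rgs4 Atp6v0e2 (0.72), Pdcd6 (0.59) and Cmbl (0.58), and for Rgs9 Atp13a2 (0.69), Wdr81 (0.66) and Irf3 (0.65). For Rgs17 they were Apbb2 (0.73), 2410089E03Rik (0.68) and Klhl24 (0.66), and for Rgs3 Kif19a (0.74), Zmynd8 (0.66) and Med16 (0.63). These values describe the libraries, which share stages and depth. Between members the highest correlation was that of Rgs2 with Rgs16, 0.47, and the lowest that of Rgs4 with Rgs16, -0.17.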

How the data were processed

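The authors deposited read counts per gene and cell in 7 tables, made with featureCounts 2.0.1 after trimming with Trimmomatic 0.39 against GRCm38 (mm10), per the submitters' processing notes. Neither aligner nor annotation nor any removal of duplicates is named in the labels. The 10x libraries of the series were not analysed here.

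All cells of 1 replicate were added up to 1 library, as cells are not replicates. Each table was fitted separately with edgeR 4.0.16 (quasi-likelihood test, TMM normalization, filterByExpr, R 4.3.3), with 10207 to 15373 genes tested and Benjamini-Hochberg adjustment over all of them. A call is an adjusted p under 0.05. Errors are standard errors of the log2 fold change. CPM values use TMM library sizes. The fit was tested on simulated data.

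Alternatives were DESeq2 1.42.0, no filter on low counts, leaving out Ins1 and Ins2 reads, leaving out cells with over 5% of reads in Gcg, Sst, Ppy and Pyy, equal weight per cell (limma 3.58.1 on log2 of the mean CPM + 1), a replicate block, and leaving out each replicate. Fits without a replicate kept the tested genes and the dispersion trend of the full fit, and a lone library was assumed to vary like the other groups. The members and all gene lists were chosen with earlier results of these data known. Named were the 6 members, the 3 genes most correlated with each over the time course (mean of at least 10 CPM) and called genes from the pathway lists. At most 4 called genes per pathway list were named in a comparison, except for early-response genes, of which more were named. The choice did not always follow the size of the change: Gna15, at 0.657 CPM at G0 and 0 at G14.5, was left out. Positions come from the GRCm38 annotation. RefSeq promoter windows (GRCm38.p6) matched all 6 members.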

Additional observations from a re-analysis of the deposited data

Results flagged for a closer look

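The difference of Rgs2 between Acss2 KO and WT mice changed between the stages of gestation by 2.97 (SE 0.39, log2 scale, G18.5 minus G14.5), with an adjusted p of 0.00777 by edgeR in a test of the difference itself. Both KO libraries were below both WT libraries at G14.5 and above them at G18.5. At G14.5 the KO pair held 28.1 and 32.0 CPM and the WT pair 62.3 and 110 CPM. The Acss2 WT pair on standard diet in the HFD set, normalized separately, held 20.9 and 31.4 CPM at that stage. G18.5_Acss2WT replicate 2 had 69.8% insulin reads, and markers of other cells differed between G18.5_Acss2WT and G0_Acss2WT. The part of these differences in the result was not tested. The contrast was chosen after the levels had been seen. It ranged from 2.50 to 3.32 when single replicates were left out, and was not called without G14.5_Acss2KO replicate 1 or 2, with adjusted p-values of up to 0.0944.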

How the results depend on the processing

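Of 26 member calls, 21 stayed under every setting that left out no replicate and 12 under every setting run. Without the filter on low counts, calls rose to 9 for gestation stages against G0 (2 with it), 6 after delivery (2), 6 for lactation (1), 10 for gestation in wild types (6), 9 for knockouts (1), 7 for high-fat diet (3), 16 for cultures (8) and 8 for the planned differences of differences (0). In that setting the standard error of Rgs2 at G5.5 was 0.18 in place of 0.43; the cause was not tested. DESeq2 called 5 for knockouts and 2 for the planned differences of differences, leaving out Ins1 and Ins2 reads gave 2 for knockouts, and equal weight per cell, tested with limma, gave 0 for lactation where the sums gave 1. Leaving out single replicates gave 1 to 4 calls for gestation, 0 to 2 after delivery, 0 to 2 for lactation, 5 to 7 for wild types, 1 to 2 for knockouts, 2 to 5 for high-fat diet, 6 to 9 for cultures and 0 to 1 for differences of differences. Rgs4 in HFD_G0_Acss2KO against WT was -0.30 and ranged from -1.25 to 3.81 over these fits, the last (adjusted p = 0.0243) without HFD_G0_Acss2WT replicate 1. The deviations of same-numbered libraries had a median correlation of 0.000574 in the time course, and of -0.0305 to 0.0161 in all tables. Single pairs ranged from -0.165 in the time course to 0.181 in the A485 table, and the lowest of 12 pairs in the nifuroxazide table was 0.00964. A median cannot exclude that some same-numbered libraries share samples. With the replicate block, the counts in the order above were 2, 2, 1, 6, 1, 3, 10 and 0. Leaving out cells rich in other hormones removed 13 cells from the time course, 3 each from the Acss2 and HFD tables, 1 each from the Stat3 and A485 tables and 0 from the p300 and nifuroxazide tables, where it is no check. Plain totals in place of TMM moved 49 of 282 group levels by more than 1 SD, by at most 31.1%. With groups of 2 or 3 libraries, 1 library often decides a call, and thinning moved 530 of 588 shares of cells with a read, so shares depend on depth.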
